A study of Mus musculus with 18 samples.

Results

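The genes that lie beside Tlr4 on mouse chromosome 4 were followed in bone marrow-derived macrophages of TLR4-knockout and wild-type mice. The window ran from 20 Mb before the start of Tlr4 to 20 Mb past its end (build GRCm39, chromosome 4, gene starts from 46745821 to 86848521). Of the 489 genes of the deposited count table that start there, 391 had a mean of under 10 reads over the 18 libraries, and Tlr4, Abca1 and Txn1 were left out. The remaining 95 genes, of 56748 in the table, are called the flanking genes here. The mean over all libraries chose them, with Zfp618 (10.56 reads) and Gm12435 (11.33 reads) just above the limit and Ctnnal1 (9.278 reads) and Lurap1l (8.889 reads) just below it. All 95 also passed the filter on low counts that left 15450 genes for testing. By the table's own annotation 80 are protein-coding genes, 5 are long noncoding RNA (lncRNA) genes and 10 are pseudogenes.

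The protein made from Tlr4 is a membrane receptor for lipopolysaccharide, a component of the outer membrane of Gram-negative bacteria, and in macrophages it signals to inflammatory genes through NF-kB and interferon regulatory factors. In a mouse line that carries a knocked-out gene, the DNA on each side of that gene is inherited along with it. It may keep sequence of the strain in which the allele was made, and genes close by may also be touched by the altered locus itself. The question was which flanking genes differed between the genotypes under every treatment and which moved with a ligand. Neither pattern by itself tells a difference of either kind from other effects of the lost receptor. Counts per gene hold no sequence variants, so the sequence of the flanking DNA was not measured.

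The 6 groups were TLR4-knockout cells with GM, TLR4-knockout cells with MDP, TLR4-knockout cells with water, wild-type cells with GM, wild-type cells with MDP and wild-type cells with water, with 3 libraries each. GM is the disaccharide GlcNAc-MurNAc of the bacterial cell wall, and MDP is spelled MurNAc-D-Ala-L-Gln in the labels, which is not the usual spelling of muramyl dipeptide. In all groups the cells came from C57BL/6J mice, had grown for 7 days with L929 supernatant, which supplies M-CSF, and were then treated for 24 h in serum-free IMDM. The labels give no dose, do not say which stretch of Tlr4 the allele lacks, and do not say whether the 3 biological replicates of a group were separate animals, and p-values therefore speak only of the spread between the sequenced libraries, which may be technical.

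Libraries held 15532973 to 21128507 counted reads. The summed level of 7 macrophage markers was 27600 to 32400 CPM in knockout libraries, where CPM are counts scaled to a common library size with edgeR's TMM factors, and 24000 to 29700 CPM in wild-type libraries. Of these 7 markers, 2 were called higher and 1 lower in knockout in water, 2 higher with GM, and 2 higher and 4 lower with MDP. Tlr4 itself averaged 50.4 CPM in knockout water, against 178 CPM in wild-type water. Its averages were 38.3 CPM in knockout and 185 CPM in wild-type cells with GM, and 48.7 CPM in knockout and 126 CPM in wild-type cells with MDP. Wild-type water replicate 3 stood apart: the chi-square statistic of its counts against the other wild-type water replicates was 142 and 116 per degree of freedom, whereas those 2 differed by 4.2. The wild-type GM replicates differed by 29.1 to 89.8 and the 9 pairs of knockout replicates by 3.3 to 5.51. Other cell type markers moved with the genotype as well. Summed, 9 neutrophil markers were at 120 to 330 CPM in knockout and 20.8 to 98.5 CPM in wild-type libraries, with Retnlg at 0 in all groups but wild-type MDP and Elane also at 0 in wild-type GM. Of the 7 neutrophil markers tested, 3 were called higher in knockout in water and 6 with GM. With MDP 5 of them were called higher and 1, Ltf, lower. The sum of 4 B cell markers was 3.9 to 6.23 CPM in knockout and 0 to 1.27 CPM in wild-type libraries, with 3, 3 and 4 of them called higher in water, GM and MDP. That of 4 dendritic cell markers was 8.33 to 11 CPM in knockout and 22.7 to 48.3 CPM in wild-type cells with GM, 11.8 to 15.9 CPM in knockout and 39.1 to 50.8 CPM in wild-type cells with MDP, and overlapped in water. Of the 2 of these that were tested, 0 were called lower in water, 1 with GM and 2 with MDP. Sums of T and NK cell markers and of erythroid markers were at most 6.46 and 0.299 CPM. The part of these markers in the results was not tested.

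A gene was called when its Benjamini-Hochberg adjusted p in edgeR's quasi-likelihood test, over all 15450 genes, was below 0.05. In water 18 of the 95 flanking genes (18.9%) were called between knockout and wild-type cells, where 14.6% of all genes were called. Of these 9 were higher in knockout, where 6.32% of all genes were, and 9 lower, where 8.3% of all genes were. With GM 37 flanking genes (38.9%) were called, 15 higher (12.7% of all genes) and 22 lower (18% of all genes), where 30.7% of all genes were called. With MDP 40 flanking genes (42.1%) were called, 20 higher (20.5% of all genes) and 20 lower (23.5% of all genes), where 44% of all genes were called. The flanking genes' shares were near those of all genes in each treatment. In bulk RNA, fewer cells of a type and less RNA per cell cannot be told apart. Without wild-type water replicate 3 the count in water was 46 of 95 (48.4%), where 46.8% of all genes were called. The sizes were also near those of all genes, with a median absolute log2 fold change of 0.36 for the flanking genes and 0.36 for all genes in water, 0.32 and 0.39 with GM, and 0.25 and 0.31 with MDP.

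The 3 treatments share no library between their comparisons. Called in the same direction in all 3 were 9 flanking genes (9.47%), where 7.94% of all genes, 1226 in number, met the same rule. Of these 5 were higher in knockout, where 3.24% of all genes were, and 4 lower, where 4.7% of all genes were. Over the 20 chromosomes with tested genes that share ran from 5.83% to 11.1%. At least 2-fold in each treatment were 3 flanking genes (3.16%), where 2.67% of all genes were. Of the genes left out of the window, Tlr4 and Abca1 also met this rule and Txn1 did not, and all 3 count among all genes. Abca1 was higher in knockout, with log2 fold changes of 1.57 in water, 1.52 with GM and 1.45 with MDP. At the other end, 36 flanking genes (37.9%) were called in none of the 3 comparisons, where 43.6% of all genes were not. Without wild-type water replicate 3 the count was 16 (16.8%), where 14.3% of all genes met the rule, and the 16 included all 9. Without any 1 of the knockout water libraries it was 2 (2.11%; ENSMUSG00000121059 and Slc31a2), where 1.57% to 1.94% of all genes met the rule. Without wild-type water replicate 2 it was 5 (5.26%), where 4.24% of all genes did, so the share of all genes fell along with that of the flanking genes.

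**Figure D1:**
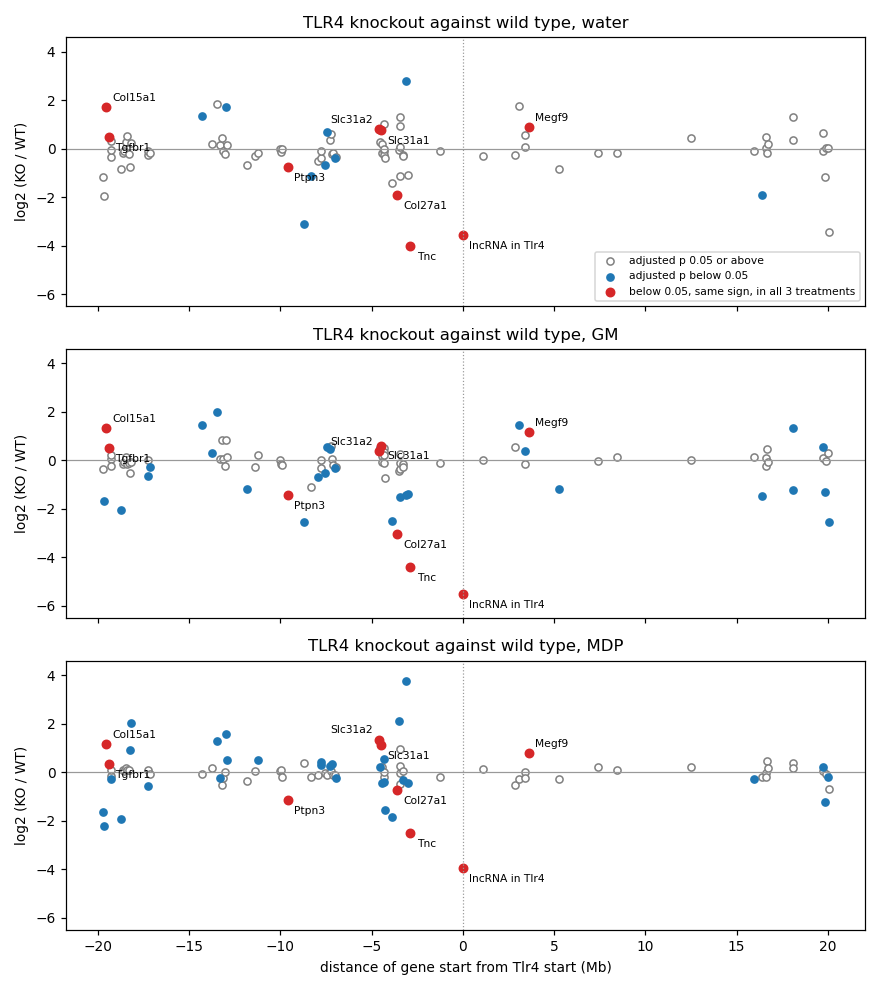
Log2 fold change, knockout over wild type, of each of the 95 flanking genes (vertical axis) against the distance of its start from that of Tlr4 in Mb (horizontal axis), in water, GM and MDP from top to bottom. Filled points passed an adjusted p of 0.05, and the 9 red ones did so with the same sign in every panel; most points lie near 0 at every distance.

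Within 5 Mb of Tlr4, 6 of 30 flanking genes (20%) were called in the same direction in all 3 treatments, against 1 of 20 (5%) between 5 and 10 Mb and 2 of 45 (4.44%) beyond that. In the rest of chromosome 4 it was 62 of 819 genes (7.57%) and on the other chromosomes 7.93%. Single treatments showed no steady order of the 3 distance classes. From the nearest to the farthest the shares called were 23.3%, 30% and 11.1% in water, beside 14.6% of all genes. They were 43.3%, 40% and 35.6% with GM (30.7% of all genes), and 53.3%, 30% and 40% with MDP (44% of all genes). The 6 near genes were the lncRNA inside Tlr4, Tnc, Col27a1, Slc31a1, Slc31a2 and Megf9, 3 of them lower and 3 higher in knockout. The difference between the distance classes was not tested, and neighbouring genes are not independent observations.

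**Figure D2:**
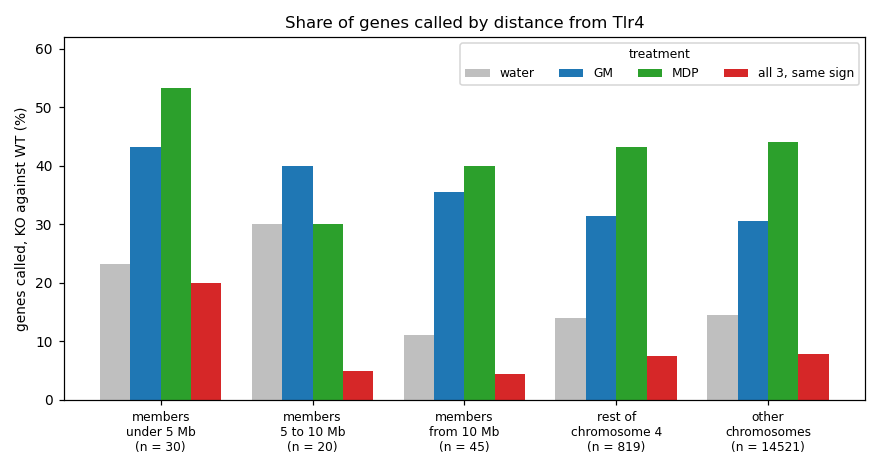
Percent of genes called between knockout and wild-type cells (vertical axis) for flanking genes in 3 classes of distance from Tlr4, for the rest of chromosome 4 and for the other chromosomes, with 1 bar each for water, GM, MDP and all 3 in the same direction. For all 3 treatments the bar of the nearest 30 genes stands at 20% and those of the other classes between 4.44% and 7.93%.

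The genes nearest to Tlr4 did not all differ. On the low side the first was Trim32, a ubiquitin ligase gene whose start is 1.22 Mb from that of Tlr4. In water Trim32 had 13.6, 12.8 and 11.7 CPM in knockout libraries, against 14.8, 12.3 and 14.1 CPM in wild-type libraries. Its log2 fold changes were -0.11 (SE 0.14, adjusted p = 0.603) in water, -0.10 (SE 0.13, adjusted p = 0.599) with GM and -0.19 (SE 0.12, adjusted p = 0.206) with MDP, so none was called. The next on that side were Tnc and Tnfsf8, described further on. On the high side, after the lncRNA inside Tlr4, came the processed pseudogenes Gm11249, at 1.10 Mb, and Gm11221, at 2.86 Mb. Gm11249 had 2.13 to 4.1 CPM in knockout and 2.25 to 4.15 CPM in wild-type libraries, and Gm11221 had 0.562 to 1.21 CPM in knockout and 0.454 to 1.77 CPM in wild-type libraries. Neither was called in any treatment, and reads of a processed pseudogene can be shared with its parent gene.

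The lncRNA ENSMUSG00000121059 (66762713 to 66764269) lies within the bounds of Tlr4 on the same strand. In water it had 1.65, 1.61 and 2.05 CPM in knockout libraries, against 21.3, 21.7 and 19.7 CPM in wild-type libraries. With GM it had 0.46, 0.611 and 0.314 CPM in knockout libraries, against 24.0, 23.1 and 16.6 CPM in wild-type libraries. With MDP it had 1.14, 0.861 and 1.68 CPM in knockout libraries, against 19, 17.3 and 19.9 CPM in wild-type libraries. Every knockout library lay far below every wild-type library. The log2 fold changes were -3.57 (SE 0.16, adjusted p = 0.000478) in water, -5.52 (SE 0.28, adjusted p = 9.7e-05) with GM and -3.95 (SE 0.19, adjusted p = 8.7e-17) with MDP. How reads that fit both this gene and Tlr4 were counted is not stated, so its level and that of Tlr4 are not separate measurements. Leaving it out, 8 of 94 flanking genes (8.51%) were called in all 3 treatments.

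Of the genes lower in knockout under every treatment, 2 others encode matrix proteins. Tnc (63878022 to 63965252) encodes tenascin-C, a glycoprotein of remodelling matrix that is also known as a TLR4 ligand. In water Tnc had 0.425, 0.459 and 1.24 CPM in knockout libraries, against 15.3, 15.2 and 3.49 CPM in wild-type libraries. With GM it had 0.153, 0.611 and 0.448 CPM in knockout libraries, against 6.91, 13.6 and 5.62 CPM in wild-type libraries. With MDP it had 0.487, 0.912 and 0.718 CPM in knockout libraries, against 4.54, 2.24 and 5.69 CPM in wild-type libraries. The groups did not overlap in any treatment, and within wild-type water replicate 3 was the low library. Log2 fold changes of knockout over wild type were -4.03 (SE 0.72, adjusted p = 0.017) in water, -4.40 (SE 0.53, adjusted p = 0.00171) with GM and -2.53 (SE 0.35, adjusted p = 1.54e-06) with MDP. Tnc lost its call in water under 5 of 12 alternative fits (highest adjusted p = 0.0938). No response of Tnc to a ligand was called in either genotype.

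Col27a1 (63132241 to 63253228) encodes a fibrillar collagen known from cartilage. In water it had 1.75, 2.16 and 1.8 CPM in knockout libraries, against 9.23, 8.28 and 4.21 CPM in wild-type libraries. With GM it had 2.2, 1.48 and 1.84 CPM in knockout libraries, against 12.4, 20.8 and 12.6 CPM in wild-type libraries. With MDP it had 4.76, 4.51 and 4.49 CPM in knockout libraries, against 6.84, 8.07 and 8.34 CPM in wild-type libraries. The groups never overlapped, and the knockout libraries came closest to the wild-type ones with MDP. The log2 fold changes were -1.92 (SE 0.34, adjusted p = 0.0157) in water, -3.05 (SE 0.28, adjusted p = 0.000625) with GM and -0.75 (SE 0.17, adjusted p = 0.00053) with MDP. Col27a1 lost its call in water under 4 of 12 alternative fits (highest adjusted p = 0.0883). In knockout cells Col27a1 was higher with MDP than with water (log2 fold change 1.26, SE 0.22, adjusted p = 2.86e-05).

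Markers of stromal cells differed between the genotypes as well. The summed level of 14 fibroblast and stromal markers was 37.7 to 41.3 CPM in knockout water, against 413, 371 and 90.7 CPM in wild-type water replicates 1 to 3. With GM it was 30.7 to 34.4 CPM in knockout and 95.9 to 147 CPM in wild-type cells, and with MDP 40.6 to 43.1 CPM in knockout and 28.7 to 43.1 CPM in wild-type cells. Col27a1 went with this sum in part: replicate 3 was the low library of both in wild-type water, and replicate 2 the high one in wild-type GM. Both were also lower in knockout in water and with GM. Between treatments Col27a1 differed from the sum: it averaged 1.9 CPM in knockout water and 4.59 CPM in knockout MDP. In wild-type cells it averaged 7.24 CPM with water and 15.3 CPM with GM, a difference that was not called. Of the 13 markers tested, 11 were called lower in knockout in water and 11 with GM, and with MDP 8 were lower and 3 higher. Lum was at 0 in wild-type MDP, and the part of these markers in the matrix gene results was not tested. Svep1 (58042442 to 58206859) is an extracellular matrix protein gene 8.70 Mb from Tlr4. It was called lower in knockout in water and with GM (log2 fold change with GM -2.53, SE 0.46, adjusted p = 0.00755) and not called with MDP. Svep1 had 0.595, 0.152 and 0.299 CPM in knockout MDP, against 0.383, 0.26 and 0.129 CPM in wild-type MDP (log2 fold change 0.39, SE 0.70, adjusted p = 0.686). In water it had 1.22, 0.735 and 0.559 CPM in knockout libraries, against 10.5, 9.8 and 1.77 CPM in wild-type libraries (log2 fold change -3.12, SE 0.71, adjusted p = 0.0347).

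**Figure D3:**
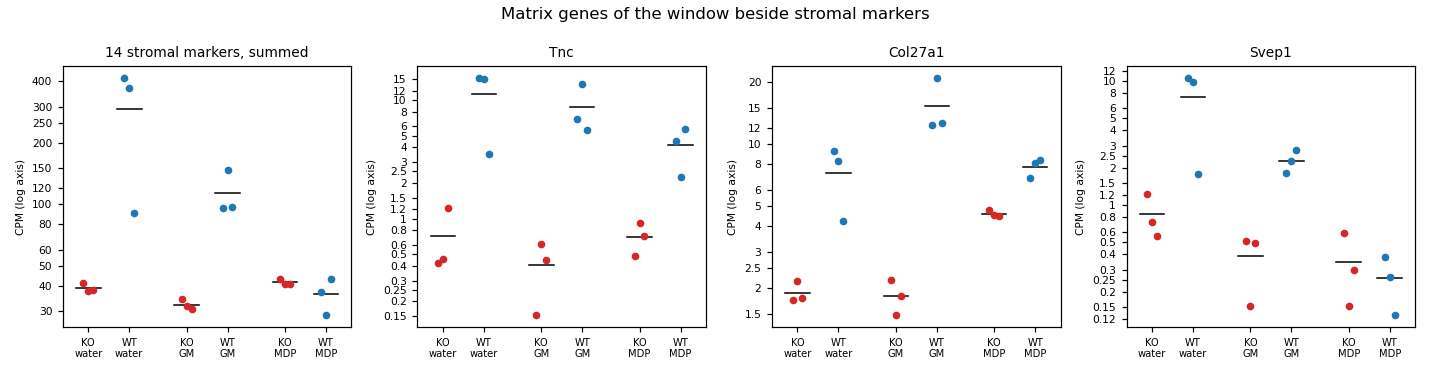
Levels in CPM (log axis) of 14 stromal markers summed and of Tnc, Col27a1 and Svep1, with 1 point per library, a line at the group mean, and knockout (red) left of wild type (blue) in each treatment. In wild-type water replicate 3 lies below replicates 1 and 2 in all 4 panels. With MDP the sums of the genotypes overlap, although 8 of the 13 markers tested were called lower in knockout.

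Ptpn3 (57190841 to 57301837), the last of the 4 lower genes, encodes a non-receptor tyrosine phosphatase. In water it had 13, 12.3 and 12.4 CPM in knockout libraries, against 21.7, 21.4 and 21.1 CPM in wild-type libraries. Under GM the values were 10.5, 12.5 and 13.4 CPM in knockout libraries, against 31.5, 36.7 and 30.8 CPM in wild-type libraries. Under MDP the values were 11.7, 15.9 and 16.7 CPM in knockout libraries, against 29.9, 33.0 and 36.3 CPM in wild-type libraries. The replicates of each group lay close together and the groups lay apart. Log2 fold changes of knockout over wild type were -0.77 (SE 0.11, adjusted p = 0.00804) in water, -1.44 (SE 0.13, adjusted p = 0.000597) with GM and -1.17 (SE 0.11, adjusted p = 6.67e-09) with MDP. Without any 1 knockout water library the call in water was lost (highest adjusted p = 0.0624). Ptpn3 was also higher with MDP than with water in wild-type cells (log2 fold change 0.63, SE 0.11, adjusted p = 0.0216), a call lost under 7 of 12 alternatives.

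Among the genes higher in knockout under every treatment were neighbouring copper transporter genes. Slc31a1 (62278964 to 62310006) encodes CTR1, the main importer of copper at the cell surface, and Slc31a2 (62180799 to 62216648) encodes CTR2, its relative on internal membranes. Both lie on the plus strand about 4.5 Mb from Tlr4. Their promoters are shown because both genes were higher in knockout under every treatment. Each runs from 250 bases before to 50 bases after the start as RefSeq gives it on GRCm38.p6, a different build from that of the counts. Slc31a1 lies at chr4:62360451-62360750 and Slc31a2 at chr4:62286179-62286478, both on the plus strand. The promoter of Tnfsf15, the flanking gene with the widest difference between the genotypes' responses, is shown with them (chr4:63745010-63745309, minus strand). Capitals mark matches on either strand to the GC box GGGCGG, which factors of the Sp1 family bind, in Slc31a1, and to TGCNCNC in the others. TGCNCNC is a loosened form of TGCRCNC (R is A or G), the core bound by the metal-response factor MTF1.
Slc31a1: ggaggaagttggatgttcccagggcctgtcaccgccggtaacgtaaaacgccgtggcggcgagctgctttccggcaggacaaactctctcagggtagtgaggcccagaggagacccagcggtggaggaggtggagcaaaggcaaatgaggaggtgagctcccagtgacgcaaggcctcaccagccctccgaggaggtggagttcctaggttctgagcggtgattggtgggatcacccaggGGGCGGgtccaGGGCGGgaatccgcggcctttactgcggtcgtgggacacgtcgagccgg
Slc31a2: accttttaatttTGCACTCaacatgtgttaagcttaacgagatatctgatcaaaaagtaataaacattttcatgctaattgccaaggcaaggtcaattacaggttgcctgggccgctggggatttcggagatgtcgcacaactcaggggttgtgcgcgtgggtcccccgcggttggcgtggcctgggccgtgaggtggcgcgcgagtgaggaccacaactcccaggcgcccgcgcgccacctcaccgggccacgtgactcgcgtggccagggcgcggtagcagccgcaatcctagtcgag
Tnfsf15: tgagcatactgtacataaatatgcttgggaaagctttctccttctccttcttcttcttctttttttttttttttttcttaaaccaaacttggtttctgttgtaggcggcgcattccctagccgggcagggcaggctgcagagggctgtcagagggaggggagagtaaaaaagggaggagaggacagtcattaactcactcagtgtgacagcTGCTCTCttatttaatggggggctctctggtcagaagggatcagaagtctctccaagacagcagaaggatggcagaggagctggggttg
Slc31a1 held 2 GC boxes and no TGCNCNC, and Slc31a2 and Tnfsf15 each held 1 TGCNCNC and no GC box. The match in Slc31a2, TGCACTC, also fits the stricter TGCRCNC, and that in Tnfsf15, TGCTCTC, does not. None of the 3 held the AP-1 motif TGANTCA or TATAAA. Such matches are common: of 32851 RefSeq promoters of that length, 35.7% held a GC box, 51% the loosened TGCNCNC, 7.81% the AP-1 motif and 13.6% TATAAA. Of the flanking genes 71 had an entry, 90 promoters in all, of which 65.6% held a GC box, 68.9% the loosened TGCNCNC, 2.22% the AP-1 motif and 10% TATAAA. The flanking genes were chosen for their read counts and the 32851 promoters were not, so these shares do not compare like sets. Overlaps between matches of different motifs were not removed, and a match is only a match of letters.

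In water Slc31a2 had 170, 182 and 165 CPM in knockout libraries, against 93.3, 99.4 and 98.7 CPM in wild-type libraries. With GM the levels were 172, 168 and 162 CPM in knockout libraries, against 127, 137 and 123 CPM in wild-type libraries. With MDP the levels were 183, 187 and 202 CPM in knockout libraries, against 83.0, 72.5 and 69.5 CPM in wild-type libraries. In knockout cells the level was called slightly higher with MDP than with water (log2 fold change 0.15, SE 0.05, adjusted p = 0.0343). In wild-type cells neither the difference of GM from water (0.41, SE 0.10, adjusted p = 0.282) nor that of MDP from water (-0.37, SE 0.10, adjusted p = 0.0736) was called. The log2 fold changes were 0.83 (SE 0.08, adjusted p = 0.00334) in water, 0.38 (SE 0.08, adjusted p = 0.0108) with GM and 1.34 (SE 0.06, adjusted p = 1.86e-16) with MDP. The call with GM was lost without knockout GM replicate 1 or 2 (highest adjusted p = 0.0592).

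Slc31a1 had 168, 186 and 179 CPM in knockout water, against 89.4, 94.6 and 127 CPM in wild-type water. GM-treated libraries had 192, 189 and 177 CPM in knockout libraries, against 117, 109 and 140 CPM in wild-type libraries. MDP-treated libraries had 207, 223 and 220 CPM in knockout libraries, against 107, 93.2 and 102 CPM in wild-type libraries. All knockout libraries lay above all wild-type libraries. Log2 fold changes of knockout over wild type were 0.78 (SE 0.15, adjusted p = 0.0202) in water, 0.61 (SE 0.11, adjusted p = 0.00655) with GM and 1.11 (SE 0.06, adjusted p = 1.2e-15) with MDP. The call in water was lost under 5 of 12 alternatives (highest adjusted p = 0.0994). Slc31a1 overlaps Cdc26 on the other strand, and whether the counting used strand is not stated. Cdc26, which encodes a subunit of the anaphase-promoting complex, was called in no comparison of the genotypes (log2 fold changes 0.19, 0.18 and 0.21 in water, GM and MDP). Fkbp15, whose start lies between those of the copper transporters, was called higher with GM (log2 fold change 0.52, adjusted p = 0.00755) and MDP (log2 fold change 0.20, adjusted p = 0.00863). Its value in water was 0.28 (adjusted p = 0.0767). Fkbp15 and Cdc26 are named for their position, after their values were seen.

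Megf9 (70345302 to 70453232), on the high side of Tlr4, encodes a membrane protein with EGF-like repeats. In water it had 26.4, 26.1 and 28.3 CPM in knockout libraries, against 14.6, 11.3 and 17.4 CPM in wild-type libraries. Under GM the values were 32.6, 30.7 and 31.8 CPM in knockout libraries, against 17.3, 13.3 and 11.6 CPM in wild-type libraries. Under MDP the values were 27.9, 25.3 and 23.4 CPM in knockout libraries, against 14.8, 15.1 and 14.8 CPM in wild-type libraries. No knockout library reached as low as a wild-type one. The log2 fold changes were 0.90 (SE 0.17, adjusted p = 0.0202) in water, 1.17 (SE 0.15, adjusted p = 0.00221) with GM and 0.78 (SE 0.10, adjusted p = 2.08e-07) with MDP. Megf9 lost its call in water under 4 of 12 alternatives (highest adjusted p = 0.0994).

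The remaining higher genes lie at the far low end of the window, more than 19 Mb from Tlr4. Tgfbr1 (47353222 to 47414931) encodes the type I receptor for TGF-beta. Its level was 246, 240 and 242 CPM in knockout water, against 187, 179 and 162 CPM in wild-type water, and the ranges over all treatments were 236 to 248 CPM in knockout and 152 to 200 CPM in wild-type cells. The differences were small, with log2 fold changes of 0.47 (SE 0.09, adjusted p = 0.0202) in water, 0.52 (SE 0.11, adjusted p = 0.0115) with GM and 0.32 (SE 0.05, adjusted p = 9e-06) with MDP. Under 5 of 12 alternatives the call in water was lost (highest adjusted p = 0.108). The call with GM was lost without knockout GM replicate 2 or 3 or wild-type GM replicate 1 (highest adjusted p = 0.0561). Col15a1 (47208161 to 47313167) encodes a collagen of basement membranes. It had 9.73, 10.4 and 11.2 CPM in knockout water, against 3.99, 3.53 and 1.99 CPM in wild-type water. With GM the levels were 11.6, 11.6 and 9.09 CPM in knockout libraries, against 3.62, 6.5 and 2.69 CPM in wild-type libraries. With MDP the levels were 11.7, 11.4 and 12.3 CPM in knockout libraries, against 3.67, 6.98 and 5.11 CPM in wild-type libraries. Unlike Tnc and Col27a1, this matrix gene was higher in every knockout library than in any wild-type library of the same treatment, with log2 fold changes of 1.71 (SE 0.27, adjusted p = 0.0121) in water, 1.32 (SE 0.32, adjusted p = 0.0198) with GM and 1.16 (SE 0.17, adjusted p = 3.82e-06) with MDP. Its call with GM was lost without any 1 knockout GM library or without wild-type GM replicate 1 (highest adjusted p = 0.0769). That in water was lost without any 1 knockout water library (highest adjusted p = 0.0714).

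**Figure D4:**
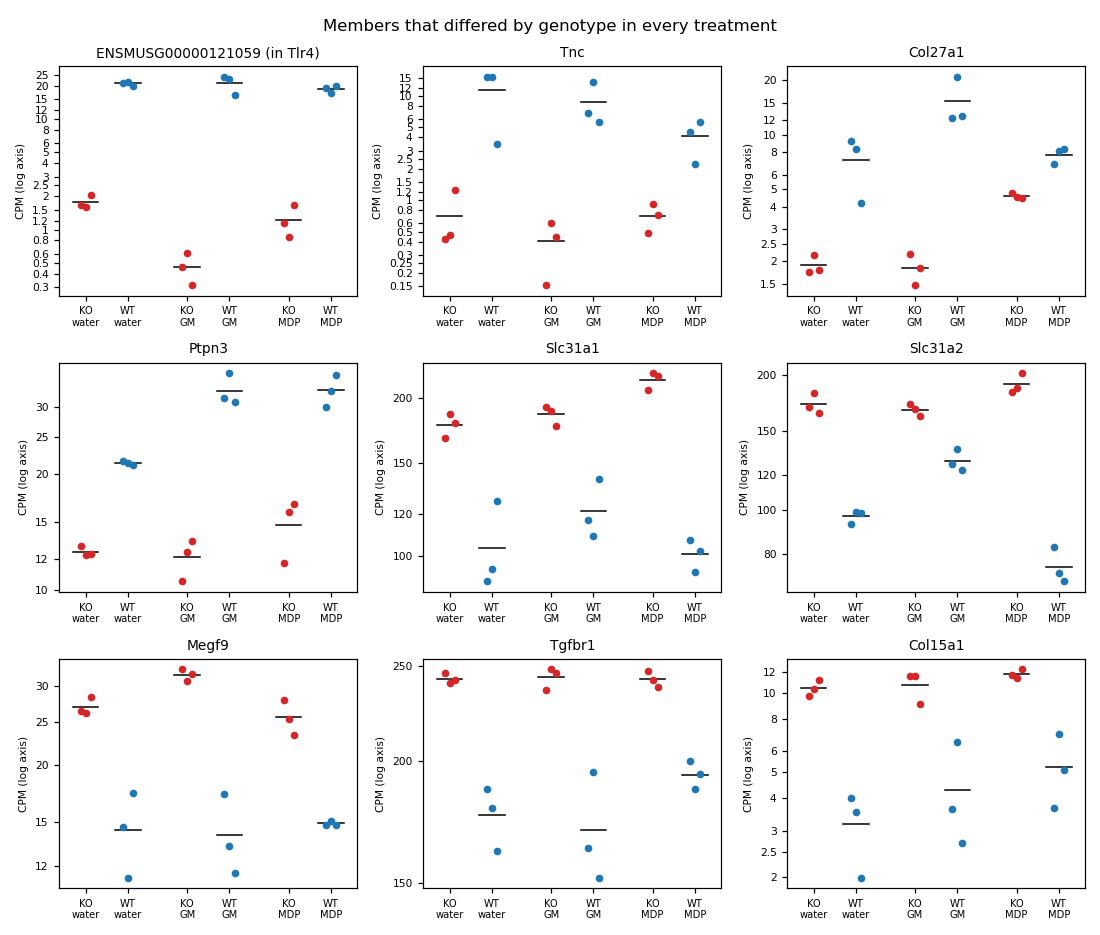
Levels in CPM (log axis) of the 9 flanking genes called in the same direction in every treatment, with 1 point per library, a line at the group mean, and knockout (red) left of wild type (blue) in each treatment. The genotypes do not overlap in any of the panels; 4 genes are lower and 5 higher in knockout.

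Non-overlap of the libraries in the same direction in all 3 treatments, with no test, was found for 18 flanking genes (18.9%) and for 19% of all genes; the 9 called genes were among those 18. No response to a ligand was called for Tnc, Tgfbr1 and Col15a1, whereas the other 6 of the 9 were called in at least 1 comparison with water.

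Grouped by role, 14 flanking genes belong to inflammation and signalling, and in water 2 of them were higher in knockout (Tnfsf15 and Tgfbr1), 2 lower (Ptpn3 and Lpar1) and 10 not called, so that 28.6% were called beside 14.6% of all genes. With GM 1 was higher and 6 lower (50% beside 30.7% of all genes), among them the orphan nuclear receptor gene Nr4a3 (log2 fold change -2.03, SE 0.25) and the CD30 ligand gene Tnfsf8 (-1.40, SE 0.31). With MDP 4 were higher and 4 lower (57.1% beside 44% of all genes), among them Orm1 (2.11, SE 0.11) and Nr4a3 (-1.93, SE 0.13). The list's median log2 fold change was -0.27 in water, -0.70 with GM and -0.15 with MDP, beside -0.03, -0.03 and -0.02 for all genes tested. Of 15 genes for lipid, metal and redox metabolism, 2 were higher and 2 lower in water (26.7%), 3 higher and 5 lower with GM (53.3%), and 4 higher and 5 lower with MDP (60%), beside the same 14.6%, 30.7% and 44% of all genes. The metabolic list's medians were -0.23 in water, -0.22 with GM and -0.12 with MDP. Plin2, which coats lipid droplets and had the highest mean level per gene length of the flanking genes (231.6 FPKM, a unit scaled to gene length and library size), was lower in knockout with GM (log2 fold change -1.32, SE 0.39, adjusted p = 0.0425) and MDP (-1.23, SE 0.05, adjusted p = 1.01e-17). In water it had 573, 537 and 564 CPM in knockout libraries, against 625, 738 and 2340 CPM in wild-type libraries (log2 fold change -1.15, SE 0.50, adjusted p = 0.166). Plin2 was chosen after its values were seen. Of this list's called genes, Inip is known for DNA repair and Haus6 for the mitotic spindle.

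Of 14 genes for vesicles, secretion and the lysosome, 1 was called in water (7.14%; Susd1, higher), 2 with GM (14.3%) and 5 with MDP (35.7%), beside 14.6%, 30.7% and 44% of all genes, and the list's medians were -0.08, -0.01 and 0.07 in water, GM and MDP. Of 24 genes for RNA, chromatin and cell division, 2 were higher and 1 lower in water (12.5%), 7 higher and 5 lower with GM (50%), and 3 higher and 4 lower with MDP (29.2%), beside those same shares, with medians of 0.02, 0.00 and 0.03. The largest with GM was the zinc finger gene Zfp618 (log2 fold change -2.49), which had the lowest mean level per gene length (0.0615 FPKM). That list's Ttc39b and Megf9 have no known role in RNA or chromatin. Of 6 stromal and matrix genes, 1 was higher and 4 lower in water (83.3% beside 14.6% of all genes), 1 higher and 3 lower with GM (66.7% beside 30.7%), and 2 higher and 2 lower with MDP (66.7% beside 44%). Their medians were -1.52, -1.82 and 0.10, and Lpar1, a receptor for lysophosphatidic acid, and Tmeff1 are counted there without being matrix proteins. The lists were drawn up with earlier results of these data known, so their counts are descriptions.

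The ligands were then set against water within each genotype. In at least 1 of the 4 comparisons 29 flanking genes (30.5%) were called, where 26.7% of all genes were. With GM in wild-type cells 0 flanking genes were called by edgeR, where 0.608% of all genes were; at an unadjusted p below 0.05 it was 11, where 6.31% of all genes passed, and other tools gave 4 (DESeq2, where 2.3% of all genes were called) and 2 (limma-voom, 1.18%). Without wild-type water replicate 3 edgeR called 2, where 1.86% of all genes were called. With MDP in wild-type cells 5 flanking genes (5.26%) were called, where 8.34% of all genes were, and of these 3 were higher (4.61% of all genes) and 2 lower (3.72% of all genes). That count was 32 (33.7%) without wild-type water replicate 3, where 35.5% of all genes were called. With GM in knockout cells 12 (12.6%) were called, 4 higher (3.61% of all genes) and 8 lower (4.23% of all genes), where 7.84% of all genes were, and without knockout GM replicate 2 it was 6 (6.32%), where 5.89% of all genes were, and without replicate 3 it was 7 (7.37%), where 5.37% were. With MDP in knockout cells 22 (23.2%) were called, 14 higher (9.16% of all genes) and 8 lower (10% of all genes), where 19.2% of all genes were. Of the 29 genes 6 (6.32% of the 95) were called in no comparison of the genotypes, where 4.35% of all genes showed that pattern, and 30 (31.6%) were called in neither kind of comparison, where 39.2% of all genes were not. Comparisons of both ligands within a genotype share the water libraries.

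Tnfsf15 (63642840 to 63663350) encodes TL1A, a TNF-family ligand that acts on T cells through the receptor DR3. In wild-type cells it had 38.2, 27.1 and 49.3 CPM with GM, against 3.53, 3.11 and 0.609 CPM with water. In knockout cells it had 16.8, 13 and 13.4 CPM with GM, against 15.3, 16.7 and 18.3 CPM with water. Every wild-type GM library lay above every wild-type water library, yet the spread between wild-type libraries was wide and the difference was not called (log2 fold change 3.98, SE 0.60, adjusted p = 0.0574). In knockout cells GM gave a log2 fold change of -0.22 (SE 0.11, adjusted p = 0.265). The GM response of Tnfsf15 in knockout minus that in wild-type cells was -4.20 on the log2 scale (SE 0.59, adjusted p = 0.00583). MDP-treated libraries had 49.0, 65.4 and 60.0 CPM in knockout cells, above all knockout water libraries (log2 fold change 1.80, SE 0.10, adjusted p = 3.04e-12). In wild-type MDP it had 3.28, 4.84 and 4.59 CPM, close to wild-type water (log2 fold change 0.81, SE 0.57, adjusted p = 0.417). Between the genotypes Tnfsf15 therefore changed direction: it was higher in knockout in water (log2 fold change 2.79, SE 0.54, adjusted p = 0.0214) and MDP (3.78, SE 0.14, adjusted p = 8.61e-14) and lower in knockout with GM (-1.41, SE 0.22, adjusted p = 0.00494). Its neighbour Tnfsf8 had 22.4, 42.2 and 18.4 CPM with GM, against 49.3, 39.6 and 1.72 CPM with water, all in wild-type cells (log2 fold change -0.13, SE 0.96, adjusted p = 0.999).

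Only 1 other flanking gene was called for a difference in the GM response, where 0.939% of all genes were called and 0.926% had the lower response in knockout, as both flanking genes had. This was the lncRNA inside Tlr4, which fell with GM in knockout cells (log2 fold change -1.93, SE 0.40, adjusted p = 0.00114), where its counts summed over 3 libraries were 28 with GM against 99 with water. Its response in knockout minus wild type was -1.95 (SE 0.31, adjusted p = 0.0129), a call lost without knockout GM replicate 1 (adjusted p = 0.0514). The count for the GM response was 5 without wild-type water replicate 3, where 3.61% of all genes were called.

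For the MDP response 8 flanking genes (8.42%) differed between knockout and wild type, where 7.97% of all genes did. The response was higher in knockout for 6 of them (3.34% of all genes) and lower for 2 (4.63% of all genes). Without wild-type water replicate 3 the count was 29 (30.5%), where 26.2% of all genes differed. Ttc39b (83138537 to 83242492), known in mice as a factor that promotes loss of the sterol receptor LXR, had the smallest adjusted p. In wild-type cells it had 21.3, 28.6 and 21.8 CPM with MDP, against 69.8, 70.8 and 72.4 CPM with water (log2 fold change -1.57, SE 0.14, adjusted p = 0.00261). In knockout cells it had 19.8, 22.5 and 21.1 CPM with MDP, against 17.0, 21.3 and 18.8 CPM with water (log2 fold change 0.15, SE 0.10, adjusted p = 0.336). The knockout level was near 20 CPM under every treatment, and wild-type cells came near that level with MDP. The difference of the MDP responses, knockout minus wild type, was 1.72 (SE 0.17, adjusted p = 0.000292). Wild-type cells with GM kept 54.7, 56.5 and 56.8 CPM.

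Orm1 (63262797 to 63266400) encodes orosomucoid, an acute-phase protein that binds small molecules in plasma. In knockout cells it had 33.9, 38.1 and 43.0 CPM with MDP, against 15.5, 18.6 and 17.6 CPM with water (log2 fold change 1.15, SE 0.09, adjusted p = 6.51e-13). In wild-type cells it had 10.1, 7.55 and 8.93 CPM with MDP, against 12.5, 12.2 and 28.9 CPM with water (log2 fold change -1.01, SE 0.37, adjusted p = 0.143). MDP libraries thus lay above water in knockout and below water in wild-type cells. The difference of the responses was 2.17 (SE 0.41, adjusted p = 0.00883), and 1.63 without wild-type water replicate 3. Other orosomucoid genes are close copies of Orm1, so shared reads make its level uncertain.

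Tmeff1 (48585174 to 48663131), which encodes a membrane protein with follistatin-like domains, had 14.4, 14.7 and 14.3 CPM with MDP in knockout cells, against 3.08, 4.36 and 6.15 CPM with water (log2 fold change 1.69, SE 0.16, adjusted p = 9.12e-10). In wild-type cells it had 3.5, 2.66 and 4.46 CPM with MDP, against 3.03, 3.11 and 5.48 CPM with water. Only the knockout MDP libraries stood out among the 18. The neighbouring gene Msantd3 (48539935 to 48561919), which encodes a protein with a Myb-like domain, had 9.14, 9.02 and 7.24 CPM with MDP in knockout cells, against 4.36, 4.5 and 6.33 CPM with water. In wild-type cells Msantd3 had 4.49, 4.27 and 4.72 CPM with MDP, against 5.2, 6.09 and 14 CPM with water. The differences of the MDP responses, knockout minus wild type, were 1.82 for Tmeff1 (SE 0.41, adjusted p = 0.0209) and 1.65 for Msantd3 (SE 0.46, adjusted p = 0.048). Of 18 alternative fits the call was lost in 6 for Tmeff1 (highest adjusted p = 0.0584) and in 10 for Msantd3 (highest adjusted p = 0.117), all but 1 of them fits without 1 library.

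Smc2 (52439243 to 52488260) encodes a subunit of condensin, which compacts chromosomes for mitosis. In knockout cells it had 46.1, 55.5 and 49.5 CPM with MDP, against 85.5, 82.4 and 81.6 CPM with water (log2 fold change -0.72, SE 0.06, adjusted p = 6.13e-12). In wild-type cells it had 52.4, 55.6 and 49.5 CPM with MDP, against 42.6, 39.3 and 16.2 CPM with water (log2 fold change 0.68, SE 0.34, adjusted p = 0.254). The genotypes differed in water and met with MDP. The difference of the MDP responses was -1.41 (SE 0.37, adjusted p = 0.0409), a call lost in 10 of 18 alternatives (highest adjusted p = 0.156). GM lowered Smc2 in knockout cells as well, to 64.0, 61.3 and 64.1 CPM (log2 fold change -0.40, SE 0.05, adjusted p = 5.29e-07). The summed level of 8 cell cycle markers moved beside it, at 426 to 455 CPM with MDP, 536 to 574 CPM with GM and 682 to 732 CPM with water in knockout cells, and at 310 to 370 CPM with MDP, 95.5 to 233 CPM with GM and 80.6 to 286 CPM with water in wild-type cells. Their part in the result was not tested.

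The other genes called for a different MDP response were Susd1, Ugcg and Slc31a2. Susd1 encodes a protein with sushi domains, and its response in knockout minus wild type was -0.79 (SE 0.14, adjusted p = 0.00703). It had 16.1, 16.8 and 17.5 CPM with MDP in wild-type cells, against 11.6, 11.8 and 10.8 CPM with water. Ugcg, which makes glucosylceramide, differed by 0.62 (SE 0.15, adjusted p = 0.0264) and averaged 40.2 ± 0.632 CPM with MDP in wild-type cells, against 57.3 ± 9.59 CPM with water (SD, n = 3 each). In knockout cells Ugcg averaged 39.5 ± 2.56 CPM with MDP and 36.5 ± 0.342 CPM with water (SD, n = 3 each). For Slc31a2 the difference was 0.52 (SE 0.11, adjusted p = 0.0179). The call was lost in 8 of 18 alternatives for Ugcg (highest adjusted p = 0.0747) and in 4 for Slc31a2 (highest adjusted p = 0.0562), each of them a fit without 1 library. Susd1, Ugcg and Slc31a2, like Ttc39b, Tmeff1, Msantd3 and Smc2, are given here because the test called them, after their values were seen.

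**Figure D5:**
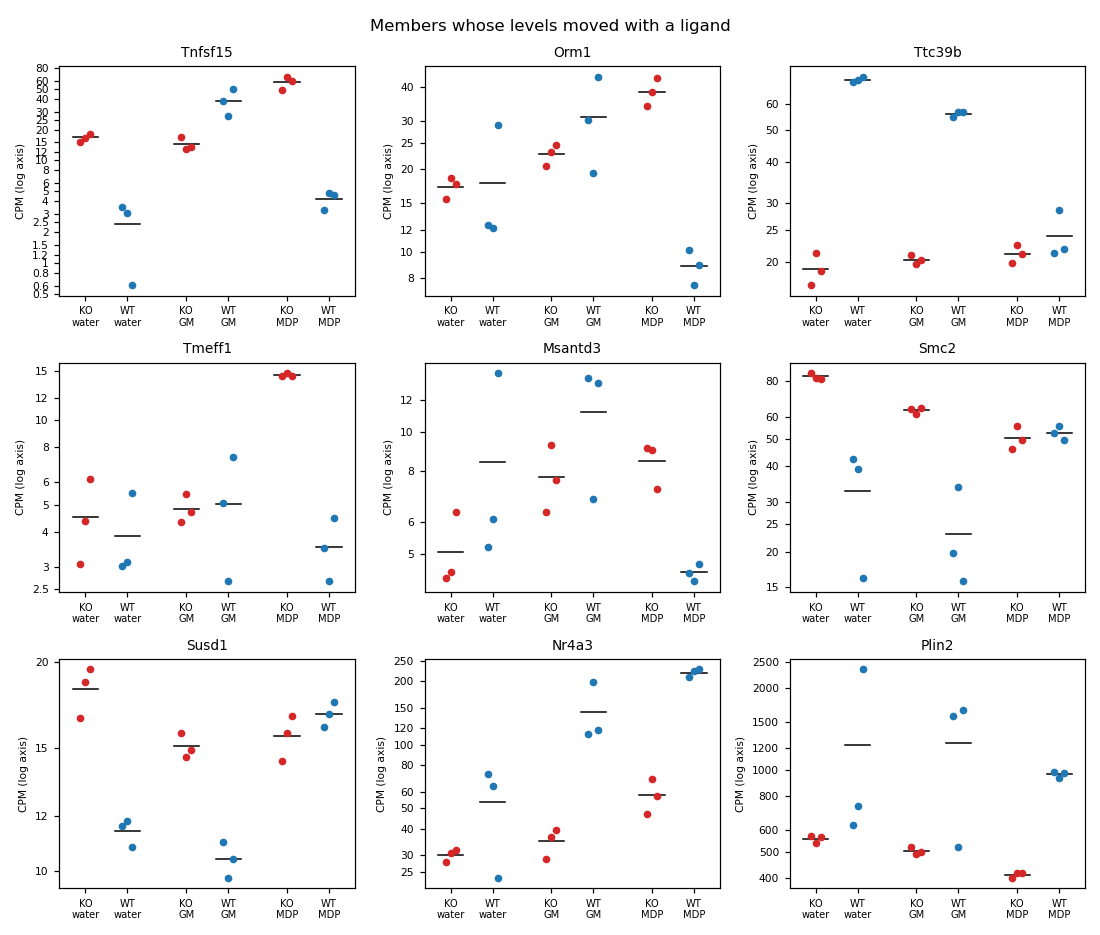
Levels in CPM (log axis) of 9 flanking genes whose levels moved with a ligand or differed in their response, with 1 point per library, a line at the group mean, and knockout (red) left of wild type (blue) in each treatment. Tnfsf15 is high in wild-type GM and knockout MDP libraries, Ttc39b is high only in wild-type water and GM libraries, and Orm1, Tmeff1 and Msantd3 differ between the genotypes with MDP.

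Among the remaining ligand calls in wild-type cells, Nr4a3, an immediate-early gene for an orphan nuclear receptor (48045153 to 48086447), had 209, 223 and 228 CPM with MDP, against 72.8, 63.6 and 23.4 CPM with water (log2 fold change 2.05, SE 0.39, adjusted p = 0.0272). In knockout cells Nr4a3 had 47.1, 68.7 and 57.0 CPM with MDP, against 27.8, 30.6 and 31.7 CPM with water (log2 fold change 0.94, SE 0.13, adjusted p = 0.00119). The call in wild-type cells was lost under 6 of 12 alternatives (highest adjusted p = 0.116), and the difference of the responses was not called (-1.11, SE 0.44, adjusted p = 0.15). Svep1 fell with MDP in wild-type cells to 0.383, 0.26 and 0.129 CPM, against 10.5, 9.8 and 1.77 CPM with water (log2 fold change -4.77, SE 0.81, adjusted p = 0.0188), beside stromal markers of which 9 of 13 fell in the same comparison. That call was lost under 5 of 12 alternatives, all without 1 library (highest adjusted p = 0.112).

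With GM the largest rises in knockout cells after Msantd3 (log2 fold change 0.62, SE 0.17, adjusted p = 0.0147) were those of Ptgr1, which inactivates leukotriene B4 and prostaglandins, and of Orm1. Ptgr1 had 146, 158 and 157 CPM with GM in knockout cells, against 114, 114 and 112 CPM with water (log2 fold change 0.44, SE 0.04, adjusted p = 5.18e-09). Orm1 rose by 0.40 (SE 0.10, adjusted p = 0.00516). Tnfsf8 fell with GM in knockout cells (log2 fold change -0.45, SE 0.11, adjusted p = 0.00806), where it had 11.7, 9.37 and 10.5 CPM, against 14.4, 14.6 and 14 CPM with water. All of these GM changes were small. Their calls were lost under 5 of 12 alternatives for Msantd3, 3 for Orm1, 3 for Tnfsf8 and 1 for Ptgr1, with 1 fit of all 18 libraries among them for each gene.

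With MDP in knockout cells the largest rise after Tnfsf15 and Tmeff1 was that of Whrn, which encodes whirlin, a scaffold protein of sensory hair cells, and which had 2.16, 2.18 and 2.99 CPM with MDP, against 1.12, 0.459 and 1.43 CPM with water (log2 fold change 1.32, SE 0.34, adjusted p = 0.00356). The largest falls were those of Fsd1l (log2 fold change -0.83), Smc2 and Klf4. Klf4, which encodes a transcription factor of monocyte differentiation, had 24.6, 20.4 and 21.1 CPM with MDP, against 35.6, 31.2 and 31.7 CPM with water (log2 fold change -0.58, SE 0.09, adjusted p = 1.38e-06). The same gene had 15.4, 15.0 and 16.8 CPM with MDP in wild-type cells, against 46.4, 44.6 and 19.3 CPM with water (log2 fold change -1.23, SE 0.32, adjusted p = 0.0678). The calls of Fsd1l, Smc2, Klf4 and Whrn with MDP in knockout cells were lost in 1 fit of all 18 libraries. That of Whrn was also lost without knockout water replicate 2. The highest adjusted p was 0.34 for Fsd1l, 0.253 for Smc2, 0.442 for Klf4 and 0.0657 for Whrn.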

How the data were processed

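Poly(A)-enriched directional libraries were made from total RNA, per the labels' protocols. Reads were aligned to GRCm39 with HISAT2 2.0.5 and counted with featureCounts 1.5.0-p3, per the submitters' processing notes; settings and use of strand are not given in the sources used here. The deposited table holds raw counts per gene, and the authors also deposited FPKM values, used only to compare levels between genes. Testing used edgeR 4.0.16 under R 4.3.3 (alternatives: limma 3.58.1 and DESeq2 1.42.0), with filterByExpr with a minimum count of 10 and TMM factors (0.877 to 1.06) from all 18 libraries, then a robust quasi-likelihood fit of the compared libraries only (6, or 12 for differences of responses), with p-values adjusted by Benjamini-Hochberg over 15450 genes. The code was tested on simulated data. SE is that of the log2 fold change. The flanking genes, lists, marker sets and named-gene rule (the largest called changes of each comparison, and the 3 nearest genes on each side of Tlr4) were chosen with earlier results of these data known. No replicates were duplicates. The result of 1 marker list is not reported here.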

Additional observations from a re-analysis of the deposited data

Results flagged for a closer look

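For 10 flanking genes the response to a ligand differed between the genotypes by edgeR's quasi-likelihood test of the difference itself (knockout minus wild type, log2 scale, 3 libraries per group). With GM these were Tnfsf15 at -4.2 (SE 0.59, adjusted p = 0.0058) and the lncRNA inside Tlr4, ENSMUSG00000121059, at -1.95 (SE 0.31, adjusted p = 0.013). With MDP the higher responses in knockout were those of Orm1 at 2.17 (SE 0.41, adjusted p = 0.0088), Tmeff1 at 1.82 (SE 0.41, adjusted p = 0.021), Ttc39b at 1.72 (SE 0.17, adjusted p = 0.00029), Msantd3 at 1.65 (SE 0.46, adjusted p = 0.048), Ugcg at 0.62 (SE 0.15, adjusted p = 0.026) and Slc31a2 at 0.52 (SE 0.11, adjusted p = 0.018). The lower ones were those of Smc2 at -1.41 (SE 0.37, adjusted p = 0.041) and Susd1 at -0.79 (SE 0.14, adjusted p = 0.007). The calls of Tnfsf15, Orm1, Ttc39b and Susd1 were kept in all 18 alternative fits, and those of the other 6 were lost in 1 to 10 of the 18.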

How the results depend on the processing

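The 9 flanking genes called in the same direction in every treatment were all called so in 1 fit of all 18 libraries (12 genes in all, where 11% of all genes were called), with DESeq2 (12, 10.7% of all genes), with limma-voom and a spread per group (11, 10.2%), with RLE factors (9, 7.98%) and with no filter (9, 3.44% of 28395 genes). The percentages that follow are likewise shares of all genes tested. The single fit gave 5 genes at least 2-fold in every treatment (3.31%), 35 between the genotypes in water (33.1%) and 26 with MDP (26%), 6 for GM (4.72%) and 26 for MDP (24.7%) against water in wild-type cells, and 1 for GM (0.0194%) and 5 for MDP (2.76%) against water in knockout cells. DESeq2 gave 5 for the difference of GM responses (2.05%), and 4 for GM (2.3%) and 12 for MDP (15.9%) in wild-type cells. The limma-voom fit gave 4 for GM in knockout cells (3.9%), and 2 for GM (1.18%) and 11 for MDP (11.6%) in wild-type cells. With no filter 3 were called for MDP in wild-type cells (4.01%). In each of these the share of all genes moved the same way as the flanking genes' count, except that 9 genes stayed called in every treatment with RLE factors and with no filter. The causes were not tested. Same-numbered replicates deviated together (correlation over 0.1) in 6 of 21 pairs, and in no comparison in all 3 pairs; in GM against water in wild-type cells the correlations were -0.244, 0.825 and 0.782 for numbers 1 to 3. In that comparison 3 of 6 libraries correlated best with their own number, and in no other did more. With the replicate number as a block, the genotypes differed in water for 9 genes (5.53%), MDP in wild-type cells gave 2 (2.5%), GM in wild-type cells gave 0 (1.07%), and 7 of the 9 were still called in every treatment (3.62%; Tnc and Tgfbr1 were lost).

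Leaving out 1 library at a time left 2 to 16 genes called in every treatment (1.57% to 14.3% of all genes), and 1 to 6 at least 2-fold (0.861% to 3.47%). Between the genotypes there were 3 to 46 in water (2.13% to 46.8%), 17 to 48 with GM (14.2% to 42.2%) and 36 to 39 with MDP (38.5% to 41.8%). Against water there were 6 to 12 for GM (5.37% to 7.99%) and 19 to 23 for MDP (15.4% to 19.2%) in knockout cells, and 0 to 2 for GM (0% to 1.86%) and 1 to 32 for MDP (1.21% to 35.5%) in wild-type cells. The difference of responses gave 1 to 5 for GM (0.46% to 3.61%) and 3 to 29 for MDP (4.19% to 26.2%). The highest counts came without wild-type water replicate 3, except between the genotypes with GM (without wild-type GM replicate 2) and with MDP (without knockout MDP replicate 2) and against water in knockout cells. Of 168 alternative counts 112 were within 1.5 times the reported one, and of 581 values of single genes 498 kept their call and direction, 83 were no longer called and 0 reversed. Mean count minimums of 5 and 50 gave 108 and 74 flanking genes and a window of 10 Mb gave 50, with 10, 9 and 7 called in every treatment. Genes of about 1 CPM, and changes in wild-type water and GM, were measured with least precision.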
